A study of Mus musculus with 6 samples.

Results

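The 10 genes described here encode the receptors that detect viral or misplaced nucleic acid, and the adaptors and transcription factors through which they signal: Ddx58, Ifih1, Dhx58, Tlr3, Mb21d1, Zbp1, Mavs, Tmem173, Irf3 and Irf7. They were chosen by name and found by matching these symbols to the Ensembl identifiers of the count files. They are 10 of the 46983 genes in the files. All 10 passed the filter on low counts, Zbp1 only through the wild-type-labelled libraries, since 0 null-labelled libraries reached the filter's 0.533 CPM for it, so that it had to differ. RNA was sequenced from mouse embryo cells, called stromal fibroblasts in the series title, in 3 libraries labelled SphK2 null and 3 labelled wild type. SphK2 is sphingosine kinase 2, an enzyme that makes the lipid signal sphingosine-1-phosphate, and the labels set cells called null for it against cells called wild type. All 6 libraries came from C57BL/6 embryos of 14 days, cultured to passage 16 in DMEM with serum at 10%, and the labels give no stimulus. Neither the construction of the null allele nor the origin of the replicates (separate embryos, cultures or technical repeats) is given in the sources used here. The p-values therefore cover the spread among these libraries only, and that spread may be technical.

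RIG-I (the product of Ddx58) and MDA5 (Ifih1) are helicases that bind viral RNA in the cytosol, with LGP2 (Dhx58) as a regulator of both, and they signal through MAVS on mitochondria. Cytosolic DNA is bound by cGAS (Mb21d1), which makes a cyclic dinucleotide that activates STING (Tmem173) on the endoplasmic reticulum, while TLR3 reads double-stranded RNA in endosomes and ZBP1 binds nucleic acid in the left-handed Z form. These routes lead to kinases that phosphorylate IRF3, which is made constitutively, and IRF7, which in fibroblasts is itself a product of interferon signalling. Both factors switch on type I interferon genes, and interferon in turn raises many of the sensors through promoter elements called interferon-stimulated response elements (ISRE).

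Promoters are shown for 4 of the genes, because the first pair are sensors whose windows hold an ISRE core and the second pair are the transcription factors that differed in opposite directions. Each window runs 5′ to 3′ on the gene's strand, from 250 bases before the start of the gene to 50 bases after it, and was taken from RefSeq on GRCm38.p6. The windows are chr4:40239776-40240075 on the minus strand for Ddx58, chr2:62646206-62646505 on the minus strand for Ifih1, chr7:44997398-44997697 on the plus strand for Irf3 and chr7:141266375-141266674 on the minus strand for Irf7. Capitals mark a match to the ISRE core on either strand, which is GAAA, any 2 bases and GAAA.
Ddx58: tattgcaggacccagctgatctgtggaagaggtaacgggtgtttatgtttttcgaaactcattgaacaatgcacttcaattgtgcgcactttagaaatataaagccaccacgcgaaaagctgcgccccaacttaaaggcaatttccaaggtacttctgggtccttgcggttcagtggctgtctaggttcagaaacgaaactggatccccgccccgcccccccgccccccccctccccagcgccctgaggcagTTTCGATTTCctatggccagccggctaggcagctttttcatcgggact
Ifih1: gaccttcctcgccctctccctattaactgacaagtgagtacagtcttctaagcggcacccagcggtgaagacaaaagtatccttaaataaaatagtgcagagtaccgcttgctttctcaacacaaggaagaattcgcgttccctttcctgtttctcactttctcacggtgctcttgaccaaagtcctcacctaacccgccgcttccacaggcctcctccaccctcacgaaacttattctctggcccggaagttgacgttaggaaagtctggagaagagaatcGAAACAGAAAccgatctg
Irf3: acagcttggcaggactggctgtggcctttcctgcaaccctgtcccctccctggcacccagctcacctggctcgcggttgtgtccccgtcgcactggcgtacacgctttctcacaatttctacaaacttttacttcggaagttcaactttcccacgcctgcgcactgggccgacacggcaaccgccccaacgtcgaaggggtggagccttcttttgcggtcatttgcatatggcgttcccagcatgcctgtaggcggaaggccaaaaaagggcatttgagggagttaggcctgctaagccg
Irf7: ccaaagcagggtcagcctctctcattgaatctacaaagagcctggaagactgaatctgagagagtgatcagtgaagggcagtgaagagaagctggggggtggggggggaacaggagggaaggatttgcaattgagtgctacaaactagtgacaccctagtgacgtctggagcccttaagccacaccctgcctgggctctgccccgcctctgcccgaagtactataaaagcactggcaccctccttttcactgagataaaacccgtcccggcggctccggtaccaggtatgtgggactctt
The table of promoters held 7 of the 10 genes, the others of these being Tlr3, Mb21d1 and Mavs. The Ddx58 match is on the opposite strand of the gene and begins at base 253 of its window, and the Ifih1 match is on the gene's own strand and begins at base 283, so both lie just after the start of the gene. The other 5 windows held no match. Of all 32851 promoter windows in the table, 1131 (3.44%) held the ISRE core. The gamma-activated sequence (TTC, any 3 bases and GAA), searched on both strands, was in none of the 7 windows and in 2726 (8.30%) of all windows. A match is a description of the letters, and no binding was measured here.

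Total counts in genes were 16804841 to 19148434 in the null-labelled libraries and 15598566 to 23681718 in the wild-type-labelled ones. Levels are given as CPM, counts scaled to the library total with TMM factors, and differences as log2 fold changes of null-labelled over wild-type-labelled libraries from edgeR's quasi-likelihood test, adjusted over all 15199 genes tested. Sphk2 itself averaged 50.02 ± 1.35 CPM in null-labelled and 27.3 ± 0.907 CPM in wild-type-labelled libraries (SD, n = 3 each), a direction that goes against the label, with a log2 fold change of 0.87 ± 0.05 (SE). The position of the deletion is not given in the sources used here. Of the exonic bases of Sphk2 20.8% are shared with Rpl18 and Dbp, and reads over those bases are left out of the counts. All directions here are between libraries as labelled. All 10 fibroblast markers (collagens, Pdgfra, Pdgfrb, Thy1, Dcn, Lum, Postn and Fbln1) were called lower in null-labelled libraries, against 41.1% of all genes tested. Of these markers 4 passed the filter through 1 group only and had to differ. The 10 summed to 134 to 139 CPM in null-labelled libraries, with Thy1 at 0, against 6708 to 6974 CPM in wild-type-labelled libraries. Without Pdgfra they summed to 45.9 to 49.0 CPM in null-labelled and 6467 to 6722 CPM in wild-type-labelled libraries. The 9 macrophage and haematopoietic markers summed to 6.15 to 6.78 CPM in null-labelled and 16.4 to 18.4 CPM in wild-type-labelled libraries, and without Cd14 to 1.39 to 1.99 and 0.989 to 1.47 CPM, with Tyrobp at 0 in the null-labelled and Adgre1 and Itgam at 0 in the wild-type-labelled ones. The 8 endothelial markers summed to 2.77 to 3.46 CPM in null-labelled and 1.76 to 2.51 CPM in wild-type-labelled libraries, and without Pecam1 to 0.768 to 0.993 and 0.946 to 1.52 CPM, with Kdr, Emcn and Cldn5 at 0 in the null-labelled and Emcn at 0 in the wild-type-labelled ones. The 8 epithelial markers summed to 383 to 410.3 CPM in null-labelled and 106.7 to 110 CPM in wild-type-labelled libraries, nearly all of it Krt8, and without Krt8 to 1.01 to 1.34 and 1.77 to 2.36 CPM, with none at 0. These marker levels moved with the label as did the genes described next, and their part in the results was not tested. In bulk RNA, fewer cells of a type and less RNA per cell cannot be told apart.

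Of the 10 genes, 7 were called lower in the null-labelled libraries, against 41.1% of all genes tested, and 2 were called higher, against 38.1% of all genes tested. Tlr3 was the 1 gene not past the threshold of 0.05. Of all genes tested, 79.2% were called in either direction, so a call alone does not set these genes apart. The groups did not overlap for 9 of the 10 genes, against 79.9% of all genes tested. The median log2 fold change of the 10 genes was -2.21, and that of all genes tested was -0.02. Lower by more than 2-fold were 6 genes, Ddx58, Ifih1, Dhx58, Zbp1, Tmem173 and Irf7, against 15.8% of all genes tested. Without Zbp1, and without the 1671 of all genes tested that likewise had a group with 0 libraries at that CPM, 6 of 9 genes were called lower, against 37.5% of the 13528 genes left, and 5 of 9 were lower by more than 2-fold, against 9.16% of those left. The median log2 fold change was then -1.68 for the 9 genes and 0.02 for the genes left. Of the 10 genes 0 were higher by more than 2-fold, against 10.4% of all genes tested, and Mavs and Irf3 rose by less than that.

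**Figure D1:**
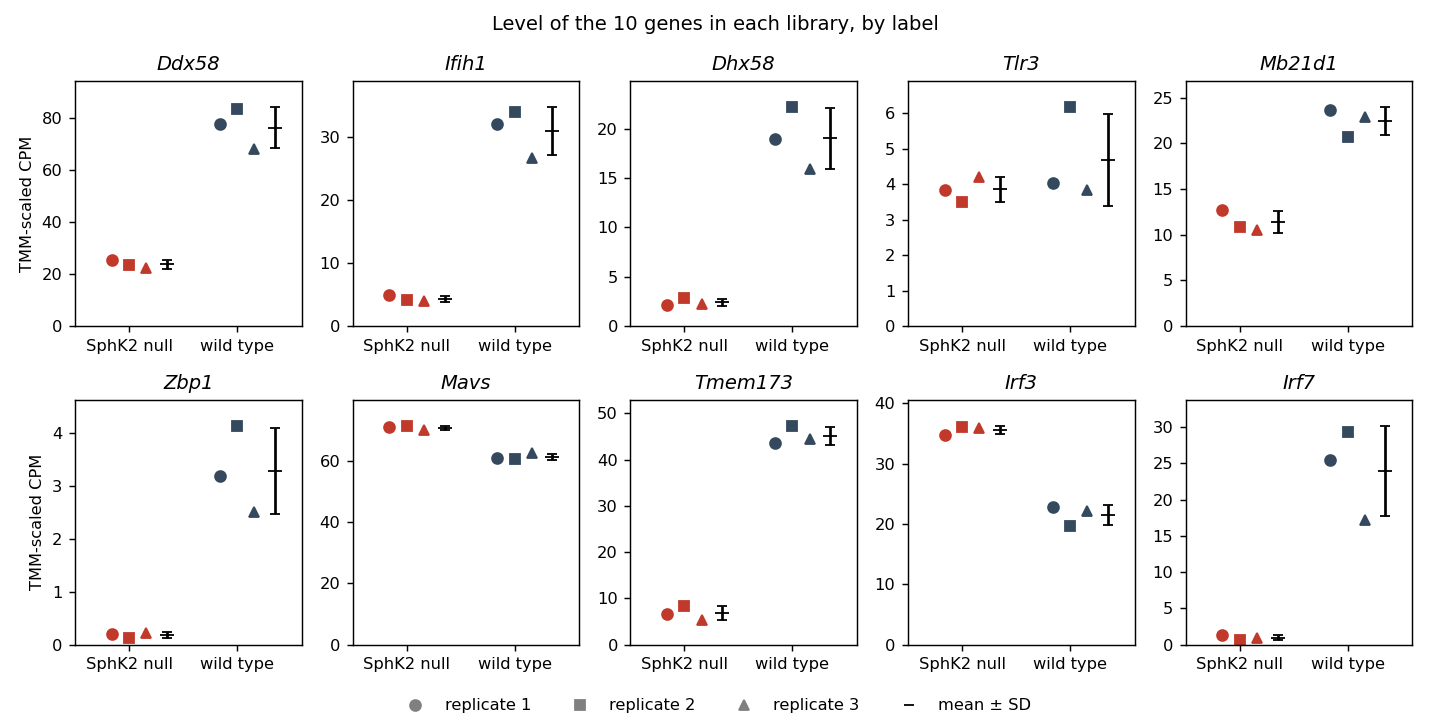
Each panel plots 1 gene's TMM-scaled CPM (vertical axis, from 0) in the 3 null-labelled libraries (left, red) and the 3 wild-type-labelled libraries (right, blue), with marker shape for the replicate number and a bar for the mean ± SD. The libraries of the labels overlap for Tlr3 alone, and Mavs and Irf3 are the genes with the higher points on the null-labelled side.

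**Figure D2:**
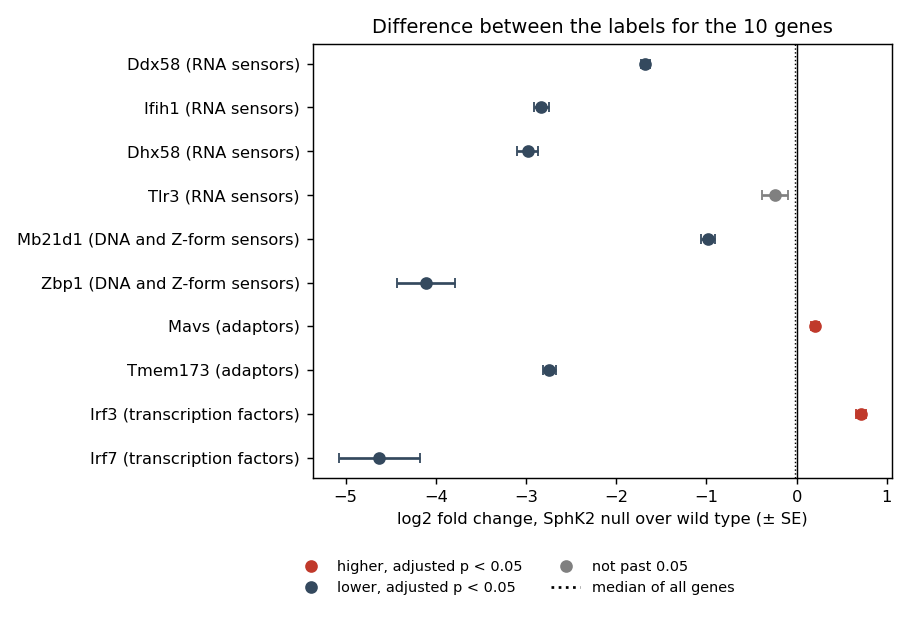
The log2 fold change of null-labelled over wild-type-labelled libraries (horizontal axis) is drawn with its SE for each gene, in order of role, and the dotted line is the median of all genes at -0.02. Values run from -4.63 for Irf7 to 0.71 for Irf3, and red, blue and grey mark genes called higher, called lower and not called.

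The 3 cytosolic RNA receptors of the RIG-I family all fell in the null-labelled libraries, Dhx58 and Ifih1 by over 2 log2 units and Ddx58 by less. Ddx58 (ENSMUSG00000040296), the receptor for short RNA with a 5′ triphosphate, is at chr4:40203773-40239828 (minus strand) (mm10, as all positions here). It had 25.5, 23.3 and 22.3 CPM in null-labelled libraries, against 77.6, 83.3 and 67.8 CPM in wild-type-labelled libraries. Every null-labelled library lay below every wild-type-labelled one, by 3.22-fold on the means, and the log2 fold change was -1.68 ± 0.05 (SE, adjusted p = 2.19e-208). Its counts were 498, 399 and 418 in null-labelled libraries and 1805, 1269 and 1296 in wild-type-labelled libraries, so depth did not limit this comparison.

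Ifih1 (ENSMUSG00000026896), the receptor for long double-stranded RNA, is at chr2:62595798-62646255 (minus strand). It had 4.87, 4.15 and 3.94 CPM in null-labelled libraries, against 32.1, 34.0 and 26.6 CPM in wild-type-labelled libraries. The groups were far apart, by 7.16-fold on the means, with a log2 fold change of -2.83 ± 0.09 (SE, adjusted p = 5.67e-227). Dhx58 (ENSMUSG00000017830), which lacks the signalling domains of its relatives and tunes them, is at chr11:100694884-100704271 (minus strand). It had 2.15, 2.80 and 2.24 CPM in null-labelled libraries, against 19.0, 22.2 and 16.0 CPM in wild-type-labelled libraries. The lowest wild-type-labelled library was still well above the highest null-labelled one, the means differed by 7.94-fold, and the log2 fold change was -2.98 ± 0.11 (SE, adjusted p = 1.35e-149). Of its exonic bases 4.31% are shared with the antisense gene Dhx58os, and reads over those bases are left out of the counts.

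Tlr3 (ENSMUSG00000031639), the endosomal receptor for double-stranded RNA, is at chr8:45395665-45410608 (minus strand). It had 3.84, 3.50 and 4.21 CPM in null-labelled libraries, against 4.04, 6.17 and 3.82 CPM in wild-type-labelled libraries. The groups overlapped, with 1 wild-type-labelled library, replicate 2, above the other 5 libraries. Its log2 fold change of -0.24 ± 0.15 (SE) came with an adjusted p of 0.121, which does not show that the levels are alike. The value rests on single libraries: it was -0.03 (adjusted p = 0.85) without wild-type-labelled replicate 2 and -0.35 (adjusted p = 0.0344) without wild-type-labelled replicate 3, and the adjusted p over all alternatives ran from 0.0344 to 0.85. The RNA sensor of the endosome therefore differed from the cytosolic ones in its call, and the difference between genes was not tested.

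The sensors of DNA and Z-form nucleic acid were both lower in the null-labelled libraries, Mb21d1 by the smaller margin. Mb21d1 (ENSMUSG00000032344), which encodes cGAS, is at chr9:78430526-78443237 (minus strand). It had 12.7, 10.9 and 10.6 CPM in null-labelled libraries, against 23.7, 20.7 and 22.9 CPM in wild-type-labelled libraries. The groups did not overlap, the means differed by 1.97-fold, and the log2 fold change was -0.98 ± 0.07 (SE, adjusted p = 3.86e-39). Zbp1 (ENSMUSG00000027514), which links Z-form nucleic acid to necroptosis and apoptosis, is at chr2:173206612-173218923 (minus strand). It had 4, 2 and 4 counts in null-labelled libraries, against 74, 63 and 48 counts in wild-type-labelled libraries. These are 0.178 ± 0.0534 CPM in null-labelled and 3.28 ± 0.814 CPM in wild-type-labelled libraries (SD, n = 3 each), so the null-labelled level is near the 0.127 to 0.192 CPM that 3 counts amount to. The rate of wild-type-labelled over null-labelled counts was 17.8, with a 95% counting interval of 9.46 to 37.7, given as a description because of the filter.

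The adaptors went in opposite directions. Tmem173 (ENSMUSG00000024349), which encodes STING, the adaptor downstream of cGAS, is at chr18:35733678-35740554 (minus strand). It had 6.56, 8.35 and 5.38 CPM in null-labelled libraries, against 43.6, 47.3 and 44.5 CPM in wild-type-labelled libraries. The wild-type-labelled libraries were close together and all far above the null-labelled ones, by 6.67-fold on the means, with a log2 fold change of -2.74 ± 0.07 (SE, adjusted p = 5.51e-310). Mavs (ENSMUSG00000037523), the mitochondrial adaptor of RIG-I and MDA5, is at chr2:131234063-131248025 (plus strand). It had 71.0, 71.3 and 69.9 CPM in null-labelled libraries, against 61.0, 60.6 and 62.4 CPM in wild-type-labelled libraries. The rise was small, 1.15-fold on the means, but the libraries of each label lay close together and the groups did not overlap, with a log2 fold change of 0.20 ± 0.04 (SE, adjusted p = 1.1e-06). On the RNA route the receptors were thus lower and the adaptor slightly higher, and on the DNA route both the receptor and the adaptor were lower.

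The transcription factors also went in opposite directions, with Irf3 higher and Irf7 lower in the null-labelled libraries. Irf3 (ENSMUSG00000003184) is at chr7:44997648-45002847 (plus strand). It had 34.7, 36.0 and 35.9 CPM in null-labelled libraries, against 22.8, 19.6 and 22.1 CPM in wild-type-labelled libraries. The null-labelled libraries were nearly equal and all higher, by 1.65-fold on the means, with a log2 fold change of 0.71 ± 0.06 (SE, adjusted p = 4.27e-34). Irf3 lies 707 kb from Sphk2 on the same chromosome. Within 1 Mb of Sphk2, 50 of 74 genes tested were higher and 18 lower, against 38.1% higher and 41.1% lower among all genes tested. Sphk2 and Irf3 are themselves among the 50. Of the 74 genes 67.6% were higher, and the median log2 fold change of the 74 was 0.51, against -0.02 for all genes. The part of this region in the rise of Irf3 was not tested.

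Irf7 (ENSMUSG00000025498) is at chr7:141262706-141266481 (minus strand). It had 25, 11 and 17 counts in null-labelled libraries, against 593, 446 and 327 counts in wild-type-labelled libraries. Scaled, these are 1.28, 0.642 and 0.906 CPM in null-labelled libraries and 25.5, 29.3 and 17.1 CPM in wild-type-labelled libraries. All null-labelled libraries were low, and the wild-type-labelled ones spread widely above them with replicate 3 the lowest. The means differed by 25.4-fold, and the log2 fold change was -4.63 ± 0.45 (SE, adjusted p = 0.000704). Irf7 had the largest fold change of the 10 genes, and its adjusted p was larger than that of all the other called genes. Of its exonic bases 1.49% are shared with Phrf1.

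Set side by side per length, the genes changed order between the labels. Levels in this paragraph are RPKM, CPM per kilobase of annotated exon, a scale on which genes can be roughly compared. In null-labelled libraries Mavs (21.1 ± 0.216 RPKM) and Irf3 (16.6 ± 0.336 RPKM) stood above all others, and the next, Ddx58, had 3.36 ± 0.234 RPKM (SD, n = 3). Ddx58, Tmem173 (2.94 ± 0.649 RPKM) and Mb21d1 (2.76 ± 0.282 RPKM) had overlapping ranges there, as did Tlr3 and Dhx58. Below them came Ifih1 at 0.529 ± 0.0594, Irf7 at 0.312 ± 0.106 and Zbp1 at 0.0505 ± 0.0151 RPKM.

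In wild-type-labelled libraries Tmem173 led with 19.6 ± 0.843 RPKM, just above Mavs with 18.3 ± 0.283 RPKM, and these ranges did not overlap (SD, n = 3). Then came Ddx58 (10.8 ± 1.11), Irf3 (10.02 ± 0.786), Irf7 (7.93 ± 2.06), Dhx58 (5.82 ± 0.949) and Mb21d1 (5.43 ± 0.367 RPKM), each overlapping the next. Ifih1 followed with 3.79 ± 0.467 RPKM, and Tlr3 (1.06 ± 0.295) and Zbp1 (0.928 ± 0.231 RPKM) overlapped at the foot of the order. The genes thus spread over a far wider range of levels in the null-labelled libraries.

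**Figure D3:**
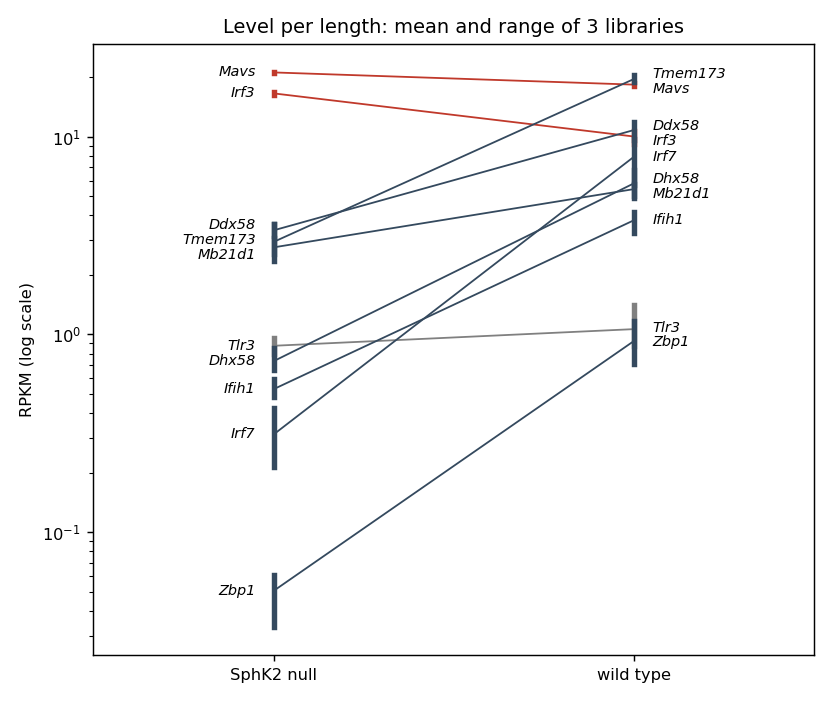
Mean RPKM (log axis) of each gene in null-labelled (left) and wild-type-labelled libraries (right), with the range of 3 libraries as a vertical bar and a line joining the means, coloured as the call (red higher, blue lower, grey not called). Mavs and Irf3 stay near the top while the lines of Irf7, Zbp1, Dhx58, Ifih1 and Tmem173 run steeply downward to the null-labelled side.

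Within a library, ratios of reads per kilobase do not depend on the scaling between libraries. They use all annotated exon bases of a gene, which may differ from the length of its expressed transcripts. Irf3 over Irf7 was 38.1, 78.9 and 55.7 in the null-labelled libraries, against 1.26, 0.943 and 1.81 in the wild-type-labelled libraries. On this scale the factors were thus at a ratio of 0.943 to 1.81 in the wild-type-labelled libraries, and Irf3 was far in excess in the null-labelled ones. Mavs over Tmem173 was 7.45, 5.87 and 8.93 in null-labelled libraries, against 0.963, 0.882 and 0.965 in wild-type-labelled libraries. Reads per kilobase of the adaptors were thus about equal in the wild-type-labelled libraries only. Mavs over Ddx58 was 5.86, 6.44 and 6.61 in null-labelled libraries, against 1.65, 1.53 and 1.94 in wild-type-labelled libraries.

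The wild-type-labelled libraries differed among themselves in these genes. Irf7 varied by a CV of 25.9% over them, where counting error alone gives 4.69%, and this was the 16th largest CV of the 10820 genes with a mean of 100 counts or more in these libraries. Dhx58 ranked 93rd on this measure with a CV of 16.3%, Ifih1 310th with 12.3% and Ddx58 575th with 10.2%, while Mavs ranked 8879th with 1.54%. The median CV over the wild-type-labelled libraries was 4.48% for all genes tested and 11.3% for the 10 genes. Irf7 was highest in replicate 2 and lowest in replicate 3. The same order held for Ddx58, Ifih1, Dhx58, Tlr3 and Zbp1, which with Irf7 make 6 of the 10 genes, against 17.0% of all genes tested. Counting error alone gives a CV of 10.7% for Tlr3 and 12.7% for Zbp1, so the order is less certain for them. The order of Irf7 also held for 7 of the 7 antiviral target genes of the interferon response. It held for 6 of the 10 enzymes that double-stranded RNA activates or that act with them. It held for 5 of 13 interferon receptor and JAK-STAT genes and for 0 of the 5 other IRF factors tested. In the remaining lists of pathway genes given below, it held for 15.4% to 50% of the genes tested. The order was thus not shared by all genes of the interferon response. This order was noticed in the values, and its cause was not tested.

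**Figure D4:**
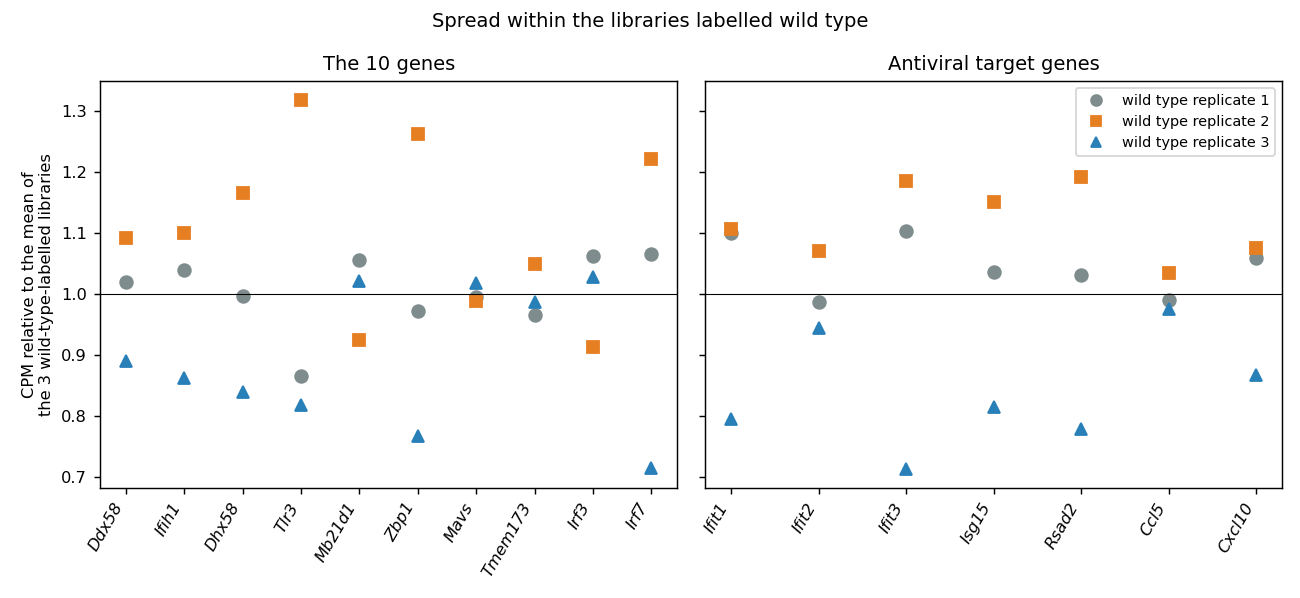
CPM of each gene in each wild-type-labelled library divided by the mean of the 3 (vertical axis), for the 10 genes (left panel) and the 7 antiviral target genes (right panel), with shape and colour for the replicate. Replicate 2 lies on top and replicate 3 at the foot for 6 genes on the left and all 7 on the right, while Mavs hardly varies.

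The other genes of these pathways were read from 11 lists with 146 genes, of which 127 were tested, 41 were higher, 71 lower and 15 not called, with a median log2 fold change of -0.16. These are 32.3% higher and 55.9% lower, against 38.1% higher and 41.1% lower among all genes tested, the shares to set beside each list that follows. Of the tested genes 7 passed the filter through 1 group only, and without them 40 of 120 were higher and 65 lower, with a median of -0.12. In the list of RNA sensor cofactors 4 of 13 were higher and 8 lower (median log2 fold change -0.28). Zcchc3, a cofactor that helps RIG-I and MDA5 bind RNA, had 0, 0 and 1 counts in null-labelled libraries, against 272, 205 and 248 counts in wild-type-labelled libraries, a ratio of wild-type-labelled over null-labelled of 697 with a 95% counting interval of 125 to 27585. Ddx60, a helicase of the interferon response, had 0.380 ± 0.0517 CPM in null-labelled and 5.87 ± 0.940 CPM in wild-type-labelled libraries (SD, n = 3 each), with a log2 fold change of -3.94 ± 0.23 (SE). Zcchc3 and Ddx60 passed the filter only through the wild-type-labelled libraries and had to differ, and without them 6 of 11 cofactors were lower. Prkra, a partner of the kinase PKR, fell by 0.65 on the log2 scale. The remaining cofactors differed by less than these in either direction.

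Next come the signalling proteins between the sensors and the IRFs. Among 20 tested adaptors and kinases 12 were higher and 4 lower, against 38.1% higher and 41.1% lower among all genes tested. The 4 not called were Ticam1, Irak4, Ripk1 and Optn, and the median log2 fold change of the 20 was 0.19. Of the exonic bases of Ripk1 38.3% are shared with Serpinb6a and Gm17084, and reads over those bases are left out. Tbk1, the kinase that phosphorylates IRF3, had 85.7 ± 3.12 CPM in null-labelled and 49.6 ± 3.67 CPM in wild-type-labelled libraries, a log2 fold change of 0.78 ± 0.04 (SE). Its relative Ikbke had 27.8 ± 2.45 CPM in null-labelled and 15.8 ± 2.36 CPM in wild-type-labelled libraries (SD, n = 3 each). These kinases were thus both higher, as was Ikbkb of the NF-κB route, with 114 ± 3.55 CPM in null-labelled and 51.8 ± 1.34 CPM in wild-type-labelled libraries. Tradd, an adaptor shared with tumour necrosis factor signalling, rose by 1.00 on the log2 scale, and Traf5, a signalling adaptor of the TRAF family, fell by 1.64. Tbk1 and Ikbke were named after their values were seen, as were Irf1, Oas1g, Oas2, Ifnar1, Stat2 and Jak2 further on.

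Regulators of cGAS and STING were split, with 7 of 16 higher and 8 lower and a median log2 fold change of -0.09, and the share higher (43.8%) was near that of all genes tested. Ifi204, a DNA-binding protein of the interferon-inducible p200 family, averaged 0.876 ± 0.207 CPM in null-labelled and 35.6 ± 2.42 CPM in wild-type-labelled libraries (SD, n = 3 each), a log2 fold change of -5.34 ± 0.12 (SE), and reads shared with its close relatives make this value uncertain. Insig1, which takes part in STING ubiquitination, fell by 1.32 on the log2 scale, and Zdhhc7, a palmitoyltransferase reported to act on STING, rose by 1.26 on that scale. The enzymes that clear nucleic acids were split too, with 4 of 15 tested higher (26.7%), 7 lower (46.7%) and a median of 0.02. Rnaseh2a, the catalytic subunit of RNase H2, had 138 ± 3.41 CPM in null-labelled and 51.8 ± 3.86 CPM in wild-type-labelled libraries. Dnase2a, the lysosomal DNase, had 47.4 ± 1.73 CPM in null-labelled and 17.8 ± 1.02 CPM in wild-type-labelled libraries. The secreted Dnase1 had 2.97 ± 0.147 CPM in null-labelled and 5.64 ± 0.715 CPM in wild-type-labelled libraries. Of the exonic bases of Dnase2a 30.0% are shared with Mast1, and of those of Dnase1 18.1% with Trap1 and Gm15879. Reads over those bases are left out of the counts. Trex1, the main cytosolic DNase, was at 0 in all libraries and all of its exonic bases are shared with another gene, so its reads could not be counted.

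Among the endosomal Toll-like receptors and their partners 5 of 8 genes were tested, 2 were higher and 2 lower, with a median of 0.02, so both shares (40.0%) were near those of all genes tested. Unc93b1, which carries these receptors to endosomes, had 18.3 ± 1.07 CPM in null-labelled and 9.60 ± 0.665 CPM in wild-type-labelled libraries (SD, n = 3 each). Hsp90b1, their chaperone, fell by 0.64 on the log2 scale and Ap3b1, an adaptor subunit for their sorting, by 0.12 on that scale. Of the 6 partners of ZBP1 in cell death, 2 were higher (Fadd at 0.43 and Mlkl, the executor of necroptosis, at 0.42), 1 was lower (Casp8 at -0.33 on the log2 scale) and Ripk3, Cflar and Pgam5 were not called. Casp8 was thus the 1 partner lower in the same libraries as Zbp1. Among the 17 inhibitors of MAVS and IRF3 signalling 6 were higher (35.3%) and 10 lower (58.8%), with a median of -0.09. Rnf125, a ubiquitin ligase that targets RIG-I and MAVS for degradation, had 267, 227 and 248 counts in null-labelled libraries, against 5, 3 and 5 counts in wild-type-labelled libraries, a log2 fold change of 5.85 ± 0.20 (SE). It passed the filter only through the null-labelled libraries and had to differ, and without it 5 of 16 inhibitors were higher. Nlrx1, a mitochondrial inhibitor of MAVS, and Dak, an inhibitor of MDA5, rose by 0.88 and 0.81 on the log2 scale.

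Of the other IRF factors 5 were tested, 2 higher and 3 lower, with a median of -0.96. Irf8, known from myeloid cells, had 12.3 ± 0.348 CPM in null-labelled and 0.620 ± 0.105 CPM in wild-type-labelled libraries (SD, n = 3 each), a log2 fold change of 4.28 ± 0.17 (SE, adjusted p = 5.37e-138). Irf9, the DNA-binding subunit of the interferon-induced factor ISGF3, had 10.6 ± 0.230 CPM in null-labelled and 48.1 ± 5.33 CPM in wild-type-labelled libraries, a log2 fold change of -2.19 ± 0.06 (SE, adjusted p = 1.1e-246). Irf5 fell by 1.85 and Irf1 by 0.96 on the log2 scale. Irf3 was thus with Irf2 and Irf8 on the higher side, and Irf7 with Irf9, Irf5 and Irf1 on the lower side.

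Genes of interferon receptors and the JAK-STAT route were lower in 12 of 13 tested (92.3%, against 41.1% of all genes tested), with a median of -1.01, and Jak2 was the exception at 0.57. The interferon genes of this list were not among those tested. Ifnar2, a subunit of the type I interferon receptor, had 10.01 ± 0.523 CPM in null-labelled and 31.5 ± 0.195 CPM in wild-type-labelled libraries (SD, n = 3 each), and the other subunit Ifnar1 had a log2 fold change of -1.06 ± 0.04 (SE). Ifngr2, a receptor subunit for interferon gamma, had one of -2.15 ± 0.05. Stat2, which binds Irf9 in ISGF3, had a log2 fold change of -1.01 ± 0.07 (SE), so both were lower. Usp18, a feedback inhibitor of the receptor that interferon induces, had 0.769 ± 0.253 CPM in null-labelled and 17.8 ± 2.93 CPM in wild-type-labelled libraries, a log2 fold change of -4.53 ± 0.15 (SE, adjusted p = 6.61e-199). The interferons themselves were hardly detected: Ifnb1 had 0, 1 and 0 counts in null-labelled libraries, against 5, 1 and 0 counts in wild-type-labelled libraries. Ifna1, Ifna2, Ifna4, Ifna5, Ifna12, Ifnk, Ifne, Ifnl2 and Ifnl3 were at 0 in all 6 libraries, each below the 0.127 to 0.192 CPM of 3 counts. No difference in interferon transcripts was detectable at this depth.

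Of the 11 lists, the products of the response had the lowest median. All 7 antiviral target genes, which IRF3, IRF7 or ISGF3 are known to switch on, were lower, with a median log2 fold change of -4.59, against 41.1% lower among all genes tested. Ifit1, which binds foreign RNA caps, had 1.07 ± 0.309 CPM in null-labelled and 65.0 ± 11.6 CPM in wild-type-labelled libraries (SD, n = 3 each), with a log2 fold change of -5.92 ± 0.35 (SE, adjusted p = 0.000116). Ifit3, its partner, had 0.106 ± 0.0476 CPM in null-labelled, which is below the level of 3 counts, and 14.1 ± 3.57 CPM in wild-type-labelled libraries. Ifit3 passed the filter only through the wild-type-labelled libraries, and without it 6 of 6 targets were lower, with a median of -4.50. Isg15, a ubiquitin-like modifier, had 1.80 ± 0.0468 CPM in null-labelled and 45.7 ± 7.82 CPM in wild-type-labelled libraries, a log2 fold change of -4.65 ± 0.14 (SE, adjusted p = 6.71e-23). In the list of enzymes linked to double-stranded RNA, 9 of 10 were lower, with a median of -2.58. Of these Oas1g, Oas2 and Oas3 passed the filter only through the wild-type-labelled libraries and had to differ, and without them 6 of 7 were lower, with a median of -2.33. Oasl2 had 1.19 ± 0.269 CPM in null-labelled and 69.4 ± 13.5 CPM in wild-type-labelled libraries, a log2 fold change of -5.87 ± 0.36 (SE, adjusted p = 0.000132). Oas3, an oligoadenylate synthetase, had a log2 fold change of -3.46, and Oas1a, whose reads may be split with its close paralogs, fell by 2.40. Oas2 was at 0 counts in all null-labelled libraries, against 3.42 ± 1.36 CPM in wild-type-labelled libraries. Fibroblast markers were lower along with these lists, as given above.

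**Figure D5:**
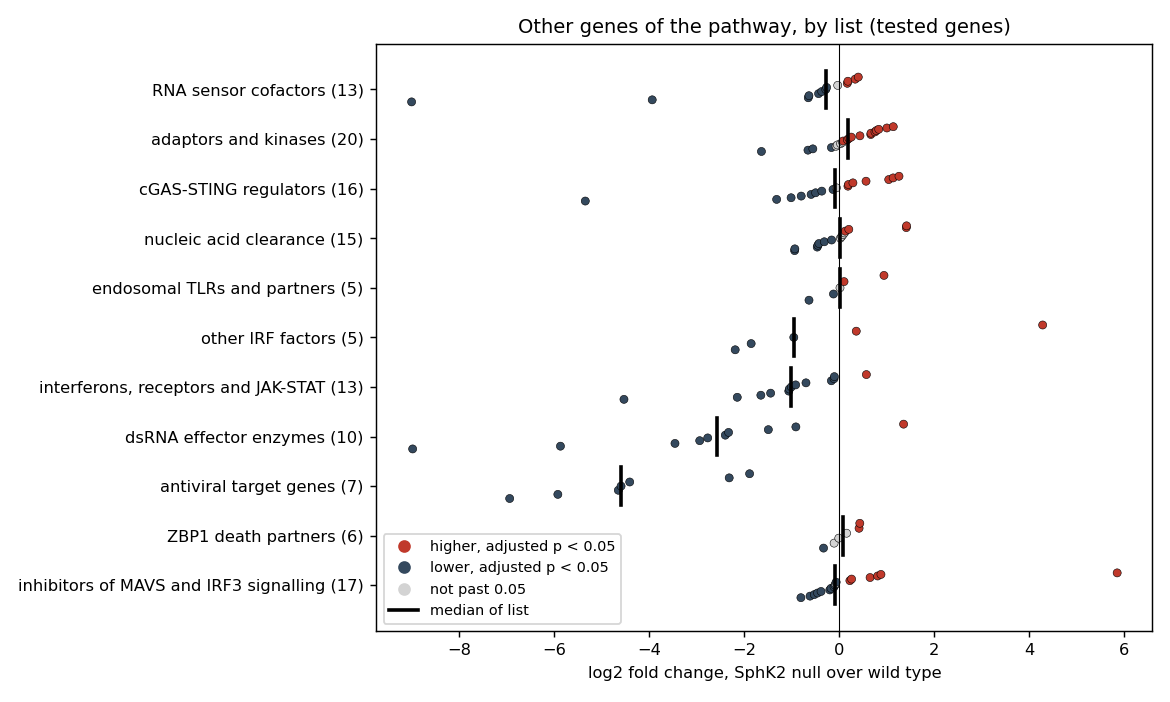
Log2 fold change of null-labelled over wild-type-labelled libraries (horizontal axis) for every tested gene of the 11 lists, 1 list a row with its number of genes, and with black bars at the medians; red is higher, blue lower and grey not called. Antiviral targets and double-stranded RNA enzymes lie to the left with medians of -4.59 and -2.58, adaptors and kinases lie slightly to the right, and the fitted value of Oas2, at 0 counts in null-labelled libraries, depends on the prior count of the fit.

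The genes whose pattern was most like that of Irf7 were sought by the root mean square difference of log2 CPM, centred on the mean of the 6 libraries, among 11157 genes. The nearest were Pcdhga2 (0.18), Apol9b (0.24), Hapln4 (0.24), Ptprf (0.25) and Ly6a (0.25, all on the log2 scale). In null-labelled libraries Pcdhga2 had 2, 0 and 1 counts and Hapln4 had 2, 1 and 2 counts. Both passed the filter only through the wild-type-labelled libraries and had to differ. Pcdhga2 is a protocadherin of the gamma cluster, and 45.1% of its exonic bases are shared with other genes, so its counts are uncertain. Among the genes described here Dhx58 ranked 470th, Ifih1 476th, Tmem173 549th, Ddx58 980th and Mb21d1 1543rd, with Tlr3 3777th, Mavs 7316th and Irf3 9691st, and Zbp1 was too low to be ranked. The measure mostly reads the size of the difference between the labels in log2 CPM. A prior count of 2 was added there, which shrinks the differences of genes with few counts. Closeness to Irf7 therefore does not mean a like fold change. Fitted log2 fold changes of the nearest genes ran from -6.06 for Pcdhga2 to -4.35 for Ptprf, against -4.63 for Irf7.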

How the data were processed

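Of each of the 6 RNA-seq libraries, 1 deposited file of gene counts was used. Per the file headers, the authors counted whole reads per Ensembl gene, summed over exons and not normalized, with featureCounts 1.6.2 on Ensembl release 83 (mm10 names). No option for strand, multimapping or overlapping reads was set, per the file headers, so reads over exons of several genes are left out. Gene length is the deposited sum of exon bases, another column of the same files. Per the submitters' processing notes, which give no roles, the tools were FastQC 0.11.2, Trimmomatic 0.33, Subread 1.6.2 and, unlike the headers, featureCounts 1.2.6. Symbols were matched for 46488 of 46983 identifiers (98.9%), and Mb21d1 was matched by its RefSeq synonym.

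Groups came from the labels. Genes were filtered with filterByExpr, which left 15199, and scaled with TMM. The robust quasi-likelihood F-test of edgeR 4.0.16 under R 4.3.3 set 3 null-labelled against 3 wild-type-labelled libraries without covariates, followed by Benjamini-Hochberg adjustment over all genes and a threshold of 0.05. For each log2 fold change, the SE was its size divided by the root of the F statistic. RPKM were computed from TMM-scaled CPM and exon length. Counting intervals cover counting error only.

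The 10 genes, the lists and the naming rule were set with earlier results of these data known. Named were the 10 genes, up to 3 called genes of each list with the largest fold change whose mean log2 CPM reached 1, and the 5 genes nearest to Irf7. Counts without genes that passed the filter through 1 group were added after the values were seen. Some genes of the lists are counted but not reported here by name. The test was checked on simulated counts of 15199 genes for this comparison. It found 58% of 50 genes shifted 1.2-fold, 80% of those shifted 1.5-fold, 88% of those shifted 2-fold and 96% of those shifted 4-fold, with 8 false calls among 14703 genes left alone. Few genes were shifted there, as many up as down, whereas 79.2% of genes were called in the data. The check therefore does not cover errors of scaling or false calls where most genes differ. The alternatives were median-of-ratios size factors, DESeq2 1.42.0, no filter on low counts, a minimum of over 1 CPM in 3 libraries, the replicate number as a block, a stricter adjusted p of 0.01 and leaving out 1 library at a time. No 2 libraries of a label agreed within sampling noise (chi-square per degree of freedom 1.44 to 2.04).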

Additional observations from a re-analysis of the deposited data

How the results depend on the processing

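No direction turned among the results of this comparison under the alternatives run. The 10 genes gave 2 higher and 7 lower under every alternative except without wild-type-labelled replicate 3, where Tlr3 was called and 8 were lower. Leaving out each library in turn gave Tlr3 log2 fold changes of -0.35 to -0.0346, and Irf7 values of -4.92 to -4.43 with adjusted p of 1.04e-269 to 0.00504. In the list of endosomal Toll-like receptors and partners, 2 genes were higher, and 1 with median-of-ratios size factors, with DESeq2 and at an adjusted p under 0.01, and 1 to 2 when each library was left out in turn, where Cnpy3 (log2 fold change 0.10) passed or missed the threshold. In the list of ZBP1 partners 1 to 2 genes were lower when each library was left out. Of the interferon receptor and JAK-STAT genes 10 to 12 were lower, with 10 under DESeq2 and without wild-type-labelled replicate 1. Of the enzymes linked to double-stranded RNA 7 were lower with the minimum of over 1 CPM in 3 libraries, against 9 in the main test. No pairing by replicate number was seen, as the deviations of same-numbered libraries correlated at 0.01, -0.0028 and 0.02. Counting noise in these deviations could hide a pairing. With the replicate block 5765 genes were higher and 6238 lower, against 5795 and 6245 without it, and no call among the 10 genes changed. Depth limits Zbp1 and the interferons, which had few or 0 counts.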
